A study of Mus musculus with 8 samples.

Results

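The genes described here encode the machinery that docks, primes, fuses and recycles synaptic vesicles in hippocampal neurons exposed to bicuculline. They were taken by symbol from the array's annotation: the synaptotagmins, synapsins, syntaxins, syntaxin-binding proteins, VAMP and SNAP proteins, complexins, Rab3 GTPases, RIM and UNC13 proteins, SV2 proteins, Bsn, Pclo and Syp. The rule found 82 rows with a single matching symbol, and these stood for 73 genes of the 19938 tested. The rule used symbols, and where a gene had several transcript clusters the one with the highest mean signal stood for it. By role they were 17 synaptotagmins, 7 vesicle proteins, 6 vesicle SNAREs, 18 target SNAREs and 4 complexins. There were also 6 syntaxin-binding proteins, 4 Rab3 GTPases and 10 active zone proteins. The remaining gene, Snap91, matches the symbol pattern but encodes the clathrin adaptor AP180, which is not a SNARE, so it is counted apart.

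Each of the 8 arrays, of the type Affymetrix Mouse Gene ST 1.0, held total RNA of hippocampal neurons from ICR mice, an outbred strain, taken at E17.5 and grown for 10 days. All cultures were treated with 50 µM bicuculline, which blocks GABA-A receptors and so raises firing, for 0, 30, 180 or 300 min, and each time had 2 biological replicates. The labels name no untreated culture kept to the later times, so every change is a difference from an earlier time of the same series. Whether the replicates were dissected separately is not said, so each p-value reflects only how these arrays differ, which may be technical.

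At a terminal, vesicles filled with transmitter are held by scaffolds of the active zone next to calcium channels. UNC13 proteins and syntaxin-binding proteins help the vesicle SNARE (a VAMP) and the target SNAREs (a syntaxin and a SNAP) to zip into a complex, complexin holds that complex, and a synaptotagmin that binds calcium triggers fusion. Several relatives in each family serve other membranes, such as the Golgi, endosomes or autophagosomes, and not the terminal.

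Values are the deposited signals on a log2 scale, so a difference of 1 is a doubling, and the 2 replicate arrays of a time are always given in the order of their labels. Signals of different genes come from different probes and are not compared with each other. A gene was called when limma's adjusted p (Benjamini-Hochberg over 19938 genes) was under 0.05. SE is limma's standard error of a log2 change. A mark of background was set at 4.46, the 95th percentile of the mean signals of 1027 olfactory receptor genes, and 69 of the 73 genes lay above it, against 68.2% of all genes. Cplx3, Cplx4, Stx19 and Unc13d did not, so their values may be mostly background.

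The array medians lay between 4.84 and 4.88, and the mean signal of the 73 genes lay between 6.93 and 7.02 on every array. All 9 neuronal markers were above the background mark, and their mean was 9.20 to 9.39 across arrays. Astrocyte markers averaged 6.13 to 6.53 and all 7 of them were above the mark, while Mag, Pdgfra, P2ry12, Itgam, Pecam1 and Mki67 were below it. Most markers of the other cell types were above it too. These were 5 of 7 for the oligodendrocyte lineage, 4 of 6 for microglia, 5 of 6 for endothelium and fibroblasts, and 2 of 3 for dividing cells. Among them Col1a1 averaged 8.06 and Dcn 7.15. No marker of any cell type was called in any comparison. As a check of the time labels, Npas4, an early gene of neuronal activity, averaged 5.81, 9.69, 7.54 and 7.68 at 0, 30, 180 and 300 min, and the later gene Bdnf averaged 6.13, 6.26, 7.27 and 7.31. Precision is limited throughout by having only 2 arrays a time.

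None of the 73 genes was called at 30, 180 or 300 min against 0 min. The share of all genes called was 0.0953% at 30 min, 0.331% at 180 min and 0.286% at 300 min, so few calls or none would be found among 73 genes at these shares. In the F test over all 4 times 0 of the 73 were called, against 0.813% of all genes. The median log2 change of the 73 genes was -0.02 at 30 min, -0.04 at 180 min and 0.00 at 300 min, and that of all genes was 0.00 at each of these times. The middle 80% of the genes lay between -0.17 and 0.13 at 30 min, between -0.22 and 0.12 at 180 min and between -0.20 and 0.24 at 300 min. An unadjusted p under 0.05 was found for 2 of the 73 genes at 30 min, for 4 at 180 min and for 9 at 300 min, which is 2.74%, 5.48% and 12.3% of them. The same threshold took 5.11%, 12.8% and 8.96% of all genes. These comparisons share the 0 min arrays. In such cultures fewer cells of a type and less RNA per cell cannot be told apart.

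The intervals say how large an uncalled change could still be. The 95% interval of the change lay within 1.5-fold either way (0.58 on the log2 scale) for 66 of the 73 genes at 30 min, 68 at 180 min and 67 at 300 min, against 93.1%, 86.2% and 89.5% of all genes. At all 3 times together it did so for 60 of the 73 genes, or 82.2%, against 78.2% of all genes. The genes whose interval reached further were Bsn, Cplx4, Pclo, Stxbp4, Unc13b, Vamp3 and Vamp4 at 30 min, Pclo, Stx17, Stxbp4, Stxbp5l and Syt14 at 180 min, and Pclo, Stx17, Stx4a, Stxbp3, Stxbp4 and Vamp1 at 300 min.

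**Figure D1:**
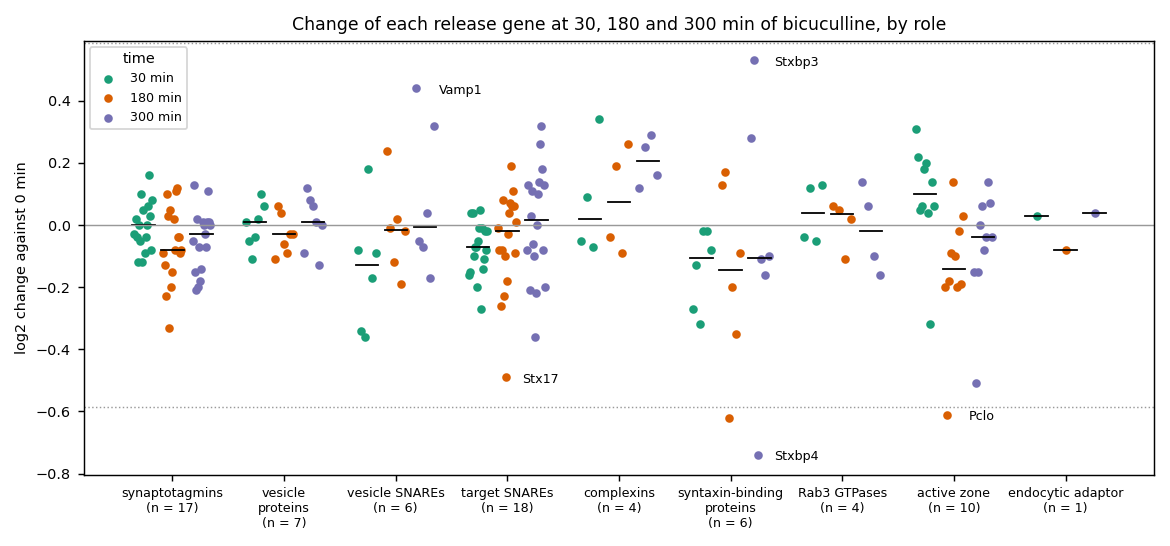
Log2 change of each of the 73 genes at 30, 180 and 300 min against 0 min, with genes grouped by role along the horizontal axis, 1 point per gene, colour for time and black bars for group medians. Most points lie within 0.2 of the zero line, and the dotted lines mark a 1.5-fold change, which Pclo at 180 min and Stxbp4 at 180 and 300 min pass.

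Arrays that do not overlap between 2 times are common with 2 arrays a time. At 30 min both arrays lay above both 0 min arrays for 9 of the 73 genes and below them for 19, against 19.2% and 18.3% of all genes. At 180 min this was so for 10 and 18 genes, against 21.1% and 22.6% of all genes, and at 300 min for 15 and 14, against 18.8% and 19.6%. At 30 and 180 min the counts of higher genes stand below the shares of all genes and those of lower genes above them. These differences were not tested, and nothing is read from the counts about the release genes.

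Pclo and Bsn encode Piccolo and Bassoon, 2 very large scaffold proteins that organise the active zone. Pclo read 8.16 and 7.33 at 0 min, 8.05 and 7.88 at 30 min, 7.15 and 7.11 at 180 min, and 7.20 and 7.26 at 300 min. All 4 later arrays were lower than all 4 earlier ones, and the 2 arrays at 0 min stood 0.83 apart, the widest gap of any of the 73 genes at that time. Against 0 min its log2 change was 0.22 at 30 min, -0.61 ± 0.20 (SE) at 180 min and -0.51 ± 0.20 at 300 min, and with adjusted p-values of 0.217 at 180 min and 0.445 at 300 min in limma it was not called. These values rest on which 0 min array is kept: without the first they were 0.64, -0.19 and -0.09 at 30, 180 and 300 min, and without the second -0.19, -1.03 and -0.93, the last pair with adjusted p-values of 0.0154 and 0.0289.

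Setting the 4 arrays of 180 and 300 min against the 4 of 0 and 30 min gave more precision, and this comparison called 1 of the 73 genes. Over all genes 2.22% were called in it, 1.20% as higher and 1.01% as lower. The called gene was Pclo, which fell by 0.67 on the log2 scale in the later arrays (SE 0.14, 95% interval -0.97 to -0.38), or 1.59-fold lower, with a limma adjusted p of 0.0207. Without either 0 min array the call held, with adjusted p-values of 0.0477 and 0.000855 and changes of -0.46 and -0.88, and without any other single array the adjusted p lay between 0.0544 and 0.113. When rows without a single gene symbol were tested too, it was 0.216. The change stayed between -0.88 and -0.46 under the 16 alternatives, and its adjusted p ran from 0.000855 to 0.216 over them.

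Bsn read 7.22 and 6.66 at 0 min, 7.28 and 7.22 at 30 min, 6.61 and 6.87 at 180 min, and 6.90 and 6.68 at 300 min. The 2 arrays at 0 min enclosed 3 of the 4 later values, and both 30 min arrays were above every later one. Its change in the later arrays was -0.33 ± 0.12 with an adjusted p of 0.194 in limma, and it was -0.19 with an adjusted p of 0.522 without the first 0 min array and -0.47 with an adjusted p of 0.0438 without the second. As with Pclo, that array was the lower of the pair. The difference of replicate 1 minus replicate 2 at 0 min correlated with gene span at a Spearman rho of 0.35 across the 73 genes. That rho was 0.13 across all genes above the background mark and 0.02 across all 19856 genes with a span.

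The promoters of both scaffold genes are shown because one of them belongs to the called gene, and those of Syn1 and Stxbp3 because among the release genes with a matched window these 2 hold a full CRE. CREB, the factor that binds the CRE, mediates much of the transcription that follows calcium entry in neurons. The windows are the 250 bases before the annotated start in RefSeq's GRCm38.p6: Pclo at chr5:14514668-14514917 on the plus strand, Bsn at chr9:108190384-108190633 on the minus strand, Syn1 at chrX:20920919-20921168 on the minus strand and Stxbp3 at chr3:108840503-108840752 on the minus strand. Capitals mark the full CRE, TGACGTCA, and each sequence runs 5′ to 3′ on the gene's own strand.
Pclo: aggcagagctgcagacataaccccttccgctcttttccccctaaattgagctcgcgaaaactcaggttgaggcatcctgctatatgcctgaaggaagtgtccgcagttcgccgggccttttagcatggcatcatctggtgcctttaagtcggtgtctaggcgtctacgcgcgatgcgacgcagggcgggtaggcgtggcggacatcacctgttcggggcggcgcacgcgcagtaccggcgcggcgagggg
Bsn: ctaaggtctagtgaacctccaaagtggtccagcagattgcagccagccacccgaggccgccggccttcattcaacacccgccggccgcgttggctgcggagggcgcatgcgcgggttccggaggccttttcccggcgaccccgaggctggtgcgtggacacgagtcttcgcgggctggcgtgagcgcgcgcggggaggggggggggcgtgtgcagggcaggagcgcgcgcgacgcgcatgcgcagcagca
Syn1: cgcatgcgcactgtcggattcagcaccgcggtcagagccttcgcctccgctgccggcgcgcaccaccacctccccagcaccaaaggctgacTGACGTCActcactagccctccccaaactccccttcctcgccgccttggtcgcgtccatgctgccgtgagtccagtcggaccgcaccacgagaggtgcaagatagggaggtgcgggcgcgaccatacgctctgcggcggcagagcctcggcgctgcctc
Stxbp3: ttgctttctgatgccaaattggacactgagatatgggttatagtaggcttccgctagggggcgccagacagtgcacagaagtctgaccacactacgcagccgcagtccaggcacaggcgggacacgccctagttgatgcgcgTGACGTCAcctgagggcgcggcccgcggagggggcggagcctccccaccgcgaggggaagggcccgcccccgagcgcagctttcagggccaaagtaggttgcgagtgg
The Pclo and Bsn windows hold neither a CRE, nor its half-site TGACG, nor the AP-1 site TGANTCA, and their GC content is 61.2% and 71.6%. In Syn1 the CRE begins 159 bases before the start and in Stxbp3 108 bases before it.

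Promoter windows were matched for 59 of the 73 genes, 75 windows in all, and searched on both strands. The full CRE was in 2 of the 75 windows, or 2.67%, against 1.55% of 32851 windows of all genes. Its half-site, which every full CRE also contains, was in 15 windows, or 20.0%, against 17.8%. The AP-1 site was in 2 windows, those of Syt2 and Syt8, or 2.67%, against 6.75%. A match describes the letters only.

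The other active zone genes serve docking and priming: RIM proteins link vesicle Rab3 to calcium channels, and UNC13 proteins open syntaxin for SNARE assembly. Rims1 read 7.94 and 7.67 at 0 min, 7.86 and 7.84 at 30 min, 7.59 and 7.65 at 180 min, and 7.58 and 7.73 at 300 min. Unc13a, the main priming factor of forebrain glutamatergic synapses, read 8.59 and 8.34, 8.50 and 8.50, 8.31 and 8.22, and 8.55 and 8.30 at those times. Both had their 180 min arrays below their 0 min arrays, with changes of -0.18 (95% interval -0.45 to 0.09) and -0.20 (-0.48 to 0.08). Without the first 0 min array these changes were -0.05 and -0.08, and without the second they were -0.31 and -0.33. Unc13a had 3 transcript clusters, and its other clusters had changes of -0.16 and -0.11 at 180 min. Unc13b read 6.19 and 6.09 at 0 min and 5.98 and 5.66 at 30 min, a change of -0.32 with an interval from -0.64 to 0.00. Of the 10 active zone genes 9 lay above 0 at 30 min, with a median of 0.10, and 8 lay below 0 at 180 min, with a median of -0.14, and none was called at either time. Among all genes above the background mark, 6020 of 13601 lay above 0 at 30 min and 7944 lay below 0 at 180 min. At 300 min the median of the active zone genes was -0.04.

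Synaptotagmins are proteins with C2 domains, and several of them sense calcium. Syt1, the sensor for fast synchronous release in the forebrain, read 10.73 and 10.58 at 0 min, 10.60 and 10.65 at 30 min, 10.54 and 10.58 at 180 min, and 10.64 and 10.58 at 300 min. Its arrays overlapped between most times, and its changes of -0.03, -0.09 and -0.05 against 0 min had 95% intervals that reached no lower than -0.34 and no higher than 0.22. Syt4, known as a synaptotagmin whose transcription depends on activity in other settings, read 9.71 and 9.63 at 0 min, 9.68 and 9.66 at 30 min, 9.76 and 9.79 at 180 min, and 9.64 and 9.64 at 300 min. Both Syt4 arrays at 180 min were just above the others, by 0.11 over 0 min with an interval from -0.14 to 0.35 (adjusted p = 0.746 in limma). Syt7, a high-affinity sensor linked to asynchronous release, had changes of 0.03, -0.04 and 0.11 at 30, 180 and 300 min. Syt14, which binds no calcium, read 6.74 and 6.54 at 0 min, 6.62 and 6.55 at 30 min, 6.22 and 6.41 at 180 min, and 6.50 and 6.37 at 300 min. All 4 later Syt14 arrays were below the 4 earlier ones, with a change of -0.24 ± 0.09 and an adjusted p of 0.22 in limma. Syt11 and Syt17 showed the same order of arrays, each with a later change of -0.17 and adjusted p-values of 0.382 and 0.379. The 17 synaptotagmins had a median change of 0.00 at 30 min, -0.08 at 180 min and -0.03 at 300 min, and their changes at 300 min ran from -0.21 in Syt12 to 0.13 in Syt10.

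The synapsins cluster vesicles into the reserve pool, synaptophysin (Syp) is an abundant protein of the vesicle membrane, and Sv2a binds the antiepileptic drug levetiracetam. Syn1 read 9.08 and 8.91 at 0 min, 8.93 and 8.98 at 30 min, 8.90 and 8.97 at 180 min, and 8.96 and 9.15 at 300 min, with its CRE shown above. Syp read 10.55 and 10.46, 10.54 and 10.58, 10.51 and 10.44, and 10.46 and 10.54 at those times. At no later time did both arrays of either gene stand clear of its 0 min arrays, and no change of Syn1 or Syp against 0 min exceeded 0.06 either way. The 7 vesicle proteins had changes from -0.11 (Sv2c) to 0.10 (Syn3) at 30 min, from -0.11 (Sv2a) to 0.06 (Sv2b) at 180 min, and from -0.13 (Syn3) to 0.12 (Sv2b) at 300 min. For all 7 the 95% interval lay within 1.5-fold at each of the 3 times.

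**Figure D2:**
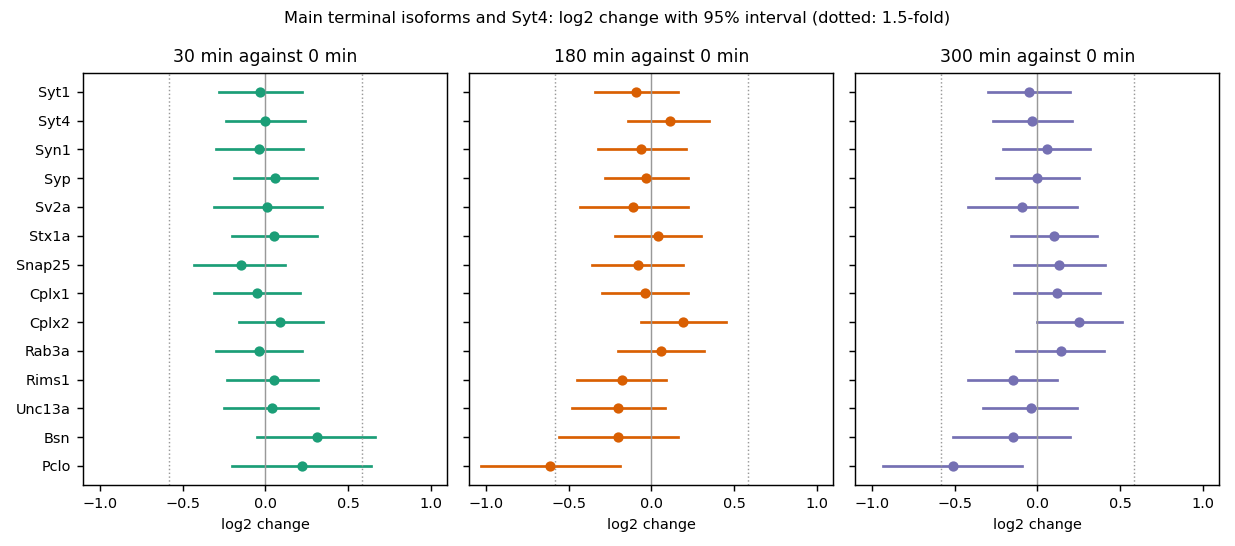
Log2 change with its 95% interval for the 13 measured main isoforms of forebrain terminals and Syt4, 1 panel for each time against 0 min, with dotted lines at a 1.5-fold change. Among them only Pclo, at 180 and 300 min, has an interval that excludes 0, and for Syt1, Syn1, Syp, Stx1a and Snap25 every interval lies inside the dotted lines.

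Among the vesicle SNAREs, Vamp2 is the main partner of Snap25 at central terminals, and its probes share a row with Ubr3, so the gene was not counted among the 73. That shared row read 10.42 and 10.31 at 0 min, 10.44 and 10.41 at 30 min, 10.38 and 10.47 at 180 min, and 10.50 and 10.38 at 300 min. Vamp1, which takes the place of Vamp2 at many fast synapses, read 5.66 and 5.72 at 0 min, 5.64 and 5.58 at 30 min, 6.01 and 5.85 at 180 min, and 5.92 and 6.34 at 300 min. All 4 later Vamp1 arrays were above all 4 earlier ones, by 0.38 ± 0.10 with an adjusted p of 0.0631 in limma, by 0.28 with an adjusted p of 0.187 without the second 300 min array, and by 0.49 with an adjusted p of 0.0352 without the first. Vamp8, an endosomal SNARE used in secretion by non-neuronal cells, read 4.78 and 4.85 at 0 min, 4.67 and 4.77 at 30 min, 4.79 and 4.80 at 180 min, and 5.12 and 5.16 at 300 min. Its 2 arrays at 300 min stood above the other 6, and the change there of 0.32 (95% interval 0.08 to 0.57) was not called. Vamp3 read 6.54 and 6.68 at 0 min and 6.30 and 6.24 at 30 min, a change of -0.34 with an interval from -0.65 to -0.02 and an adjusted p of 0.957 in limma. Vamp4 had the lowest change at 30 min, -0.36, but its 0 min arrays read 7.79 and 8.49, and only the second stood above the rest.

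The target SNAREs of the terminal are Stx1a and Snap25. Snap25 read 9.47 and 9.40 at 0 min, 9.17 and 9.39 at 30 min, 9.28 and 9.42 at 180 min, and 9.48 and 9.66 at 300 min, and Stx1a read 8.49 and 8.37, 8.58 and 8.39, 8.46 and 8.49, and 8.52 and 8.54. The Snap25 changes of -0.15, -0.08 and 0.13 had 95% intervals between -0.43 and 0.41, and the Stx1a changes were 0.05, 0.04 and 0.10. Stx17, the SNARE of autophagosomes, read 7.08 and 6.97 at 0 min, 6.83 and 6.82 at 30 min, 6.59 and 6.48 at 180 min, and 6.71 and 6.61 at 300 min. Its replicates were close, and all 4 later arrays were below all 4 earlier ones, a change of -0.33 ± 0.08 with an adjusted p of 0.0578 in limma (0.0328 to 0.210 over the alternatives). Snap29, which joins Stx17 and Vamp8 in the complex that fuses autophagosomes with lysosomes, read 6.69 and 7.09 at 0 min, 7.02 and 6.85 at 30 min, 6.54 and 6.72 at 180 min, and 6.64 and 6.71 at 300 min, a later change of -0.26 ± 0.10. So in that trio Stx17 and Snap29 had negative later changes, while Vamp8 had a later change of 0.20, and none of them was called. Stx4a, a plasma membrane syntaxin, read 6.12 and 6.33 at 0 min, 6.19 and 5.98 at 30 min, 6.18 and 6.39 at 180 min, and 6.62 and 6.48 at 300 min, and Stx3, used for receptor insertion in dendrites, averaged 5.13, 5.12, 5.32 and 5.39. Their later changes were 0.26 ± 0.10 and 0.23 ± 0.09, with adjusted p-values of 0.206 and 0.224 in limma. The 18 target SNAREs had medians of -0.07 at 30 min, when 15 of them lay below 0, -0.02 at 180 min and 0.01 at 300 min. Among all genes above the background mark 7581 of 13601 lay below 0 at 30 min, with a median of -0.02.

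Complexins bind the assembled SNARE complex, and Cplx1 and Cplx2 are the forms of forebrain terminals. Cplx2 read 7.61 and 7.66 at 0 min, 7.70 and 7.76 at 30 min, 7.90 and 7.75 at 180 min, and 7.82 and 7.95 at 300 min. Both arrays of each later time were above both 0 min arrays, and the change at 300 min was 0.25 with an interval from 0.00 to 0.51 (adjusted p = 0.563 in limma). Cplx1 read 9.95 and 9.87 at 0 min, 9.82 and 9.91 at 30 min, 9.81 and 9.94 at 180 min, and 9.95 and 10.12 at 300 min, with changes of -0.05, -0.04 and 0.12. Cplx3, a form known from the retina and below the background mark here, read 4.0 and 3.99 at 0 min, 3.84 and 4.0 at 30 min, 3.92 and 3.89 at 180 min, and 4.18 and 4.39 at 300 min. Cplx4, also below that mark, read 3.2 and 3.18 at 0 min and 3.64 and 3.42 at 30 min. The change of Cplx4 at 30 min was 0.34, with an interval from 0.07 to 0.6 and an adjusted p of 0.895 in limma. Its changes at 180 and 300 min were 0.26 and 0.16. All 4 complexins lay above 0 at 300 min, with changes from 0.12 to 0.29, and none was called. Cplx3, which had the highest of these changes, and Cplx4 were below the background mark. Among all genes 9851 of 19938 lay above 0 at that time.

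The syntaxin-binding proteins hold or release syntaxins, and of all roles this group had the widest range of changes at 180 and 300 min. Stxbp2, known from cytotoxic cells and epithelia, read 7.08 and 7.0 at 0 min, 6.64 and 6.90 at 30 min, 7.23 and 7.11 at 180 min, and 7.45 and 7.19 at 300 min. The later Stxbp2 arrays were all above the earlier ones, by 0.34 ± 0.10 with an adjusted p of 0.0874 in limma. Stxbp3, the partner of syntaxin 4 and the second gene with a CRE shown above, read 4.70 and 5.20 at 0 min, 5.01 and 4.65 at 30 min, 4.99 and 5.24 at 180 min, and 5.59 and 5.36 at 300 min. Its arrays at 300 min were the highest, with a change of 0.53 (95% interval 0.15 to 0.90) against 0 min, and the later change of 0.41 ± 0.12 had an adjusted p of 0.111. Without the first 0 min array the change at 300 min was 0.28 (adjusted p = 0.826 in limma) and the later change 0.28 (0.367), and without the second they were 0.78 (0.179) and 0.53 (0.0401). Stxbp4, which also binds syntaxin 4, read 5.12 and 5.52 at 0 min, 5.09 and 4.90 at 30 min, 4.59 and 4.82 at 180 min, and 4.23 and 4.92 at 300 min. Its earlier and later values nearly separated, but its 300 min arrays stood 0.70 apart, the widest gap of any of the 73 genes at that time. The later change of Stxbp4 was -0.52 ± 0.14 with an adjusted p of 0.0708 in limma, -0.34 with an adjusted p of 0.223 without the first 300 min array, and -0.69 with an adjusted p of 0.0138 without the second. A second Stxbp4 cluster, with a mean signal of 4.52, had a later change of -0.11, and the mean of both clusters had -0.31 with an adjusted p of 0.208. The tomosyns Stxbp5 and Stxbp5l, which inhibit SNARE assembly, had changes of -0.20 and -0.35 at 180 min and of -0.11 and -0.16 at 300 min.

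The Rab3 GTPases mark vesicles for docking. Rab3a, the main form in brain, read 7.49 and 7.56 at 0 min, 7.40 and 7.57 at 30 min, 7.60 and 7.57 at 180 min, and 7.75 and 7.57 at 300 min. Its changes of -0.04, 0.06 and 0.14 had 95% intervals between -0.30 and 0.40, and none was called. Rab3b, Rab3c and Rab3d had changes at 300 min of 0.06, -0.10 and -0.16. Snap91, the adaptor that shapes clathrin coats for vesicle retrieval, read 9.92 and 9.83 at 0 min, 9.88 and 9.92 at 30 min, 9.82 and 9.77 at 180 min, and 9.93 and 9.90 at 300 min.

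**Figure D3:**
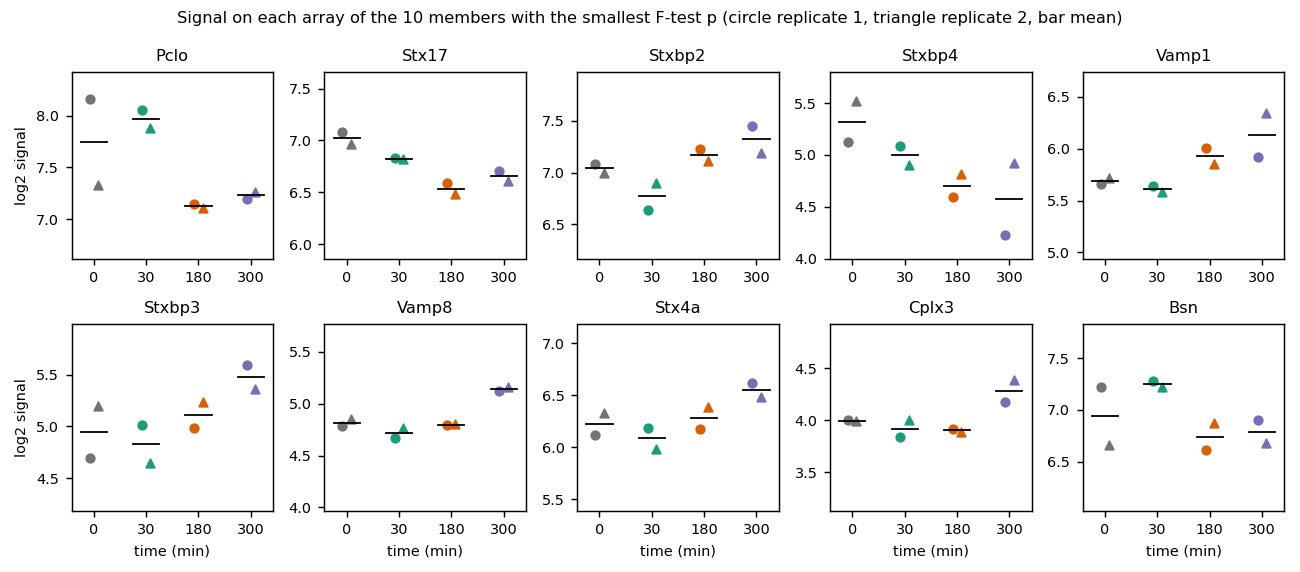
Log2 signal of the 10 genes with the smallest p in the F test over time, 1 panel per gene, with time in min along the horizontal axis, circles for replicate 1, triangles for replicate 2 and bars for means. Pclo and Stx17 lie lower at 180 and 300 min than at 0 and 30 min, Vamp1 and Stxbp2 lie higher, and the panels have axes of their own with equal length.

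In the comparison of the later with the earlier arrays, 13 of the 73 genes had an unadjusted p under 0.05, or 17.8%, against 14.3% of all genes. Of these, 7 were higher (Stx2, Stx3, Stx4a, Stxbp2, Stxbp3, Vamp1 and Vamp8) and 6 lower (Bsn, Pclo, Snap29, Stx17, Stxbp4 and Syt14). Groups of 4 arrays that did not overlap were found for 5 genes on the higher side (Rab3a, Stx11, Stx3, Stxbp2 and Vamp1) and for 5 on the lower side (Pclo, Stx17, Syt11, Syt14 and Syt17), against 3.47% and 5.36% of all genes. For Rab3a the gap was lost on rounding, as its second arrays at 30, 180 and 300 min all read 7.57. The median later change was -0.03, against 0.00 for all genes, and the interval lay within 1.5-fold for 68 of the 73, against 96.8% of all genes. Astrocyte markers had negative later changes in 7 of 7 genes, from -0.27 in Slc1a2 to -0.02 in Slc1a3, and neuronal markers in 5 of 9, down to -0.30 in Map2. So did 6 of 7 markers of the oligodendrocyte lineage and 4 of 6 of endothelium and fibroblasts. Positive later changes were found for 5 of 6 markers of GABAergic neurons, 4 of 6 of microglia and 2 of 3 of dividing cells. Among all genes above the background mark 7593 of 13601 lay below 0. The part of these shifts in the changes of Pclo and Stx17 was not tested.

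At 180 min against 30 min 0 of the 73 genes were called, against 0.502% of all genes, and 8 had an unadjusted p under 0.05, or 11.0%, against 10.5% of all genes. Pclo had the lowest change, -0.83, and Stxbp2 the highest, 0.40. Both arrays at 180 min were above both at 30 min for 16 genes and below them for 25, against 18.2% and 22.4% of all genes. Of the 10 active zone genes 9 lay below 0, with a median of -0.23, and the exception was Unc13b at 0.30. Among all genes above the background mark 7583 of 13601 lay below 0, with a median of -0.02. This comparison shares its arrays with those against 0 min, so it is not a separate observation.

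At 300 min against 180 min 0 of the 73 genes were called, and 0% of all genes. An unadjusted p under 0.05 in limma was found for 3 of the 73 (Cplx3 and Vamp8 higher, Syt12 lower), or 4.11%, against 5.72% of all genes. Of the 73 genes 54 lay above 0, with a median of 0.05, against 10469 of 19938 genes with a median of 0.01, and among genes above the background mark 8023 of 13601 lay above 0. Both arrays at 300 min were above both at 180 min for 18 genes, among them Snap25, Cplx1, Stx1a, Pclo and Syt11, and below them for 4, Stx8, Syn3, Syt12 and Syt4, against 16.8% and 16.4% of all genes. Neuronal markers lay above 0 in 8 of 9 genes and oligodendrocyte lineage markers below 0 in 7 of 7 in this comparison. Also below 0 were 5 of 6 markers of microglia, 4 of 6 of GABAergic neurons and 4 of 7 of astrocytes. The same held for 4 of 6 markers of endothelium and fibroblasts and 2 of 3 of dividing cells. The part of these markers in the comparison was not tested.

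Gene span varied widely among the 73 genes, from 3.91 kb in Rab3a to 529 kb in Unc13c. Pclo, at 349 kb, ranked sixth, behind Unc13c, Rims1 (520 kb), Syt1 (513 kb), Rims2 (486 kb) and Syn3 (450 kb). Across the 73 genes the later change correlated with span at a Spearman rho of -0.43, and across 19856 genes with a span at -0.21. At 180 min against 0 min these values were -0.43 and -0.27, and at 300 min -0.32 and -0.18. These are descriptions over genes that share the same 8 arrays. Of the 22 release genes over 100 kb, 18 had a later change below 0 (81.8%), against 66.3% of all 2294 genes of that class, with medians of -0.08 and -0.06. Between 25 and 100 kb it was 12 of 28 (42.9%), against 56.8%, and under 25 kb 12 of 23 (52.2%), against 45.2%. With each array's trend on span removed, the later change of Pclo was -0.59 with an adjusted p of 0.0346. The 5 longer genes, Unc13c, Rims1, Syt1, Rims2 and Syn3, had later changes of -0.13, -0.19, -0.05, -0.07 and -0.13. The other transcript clusters of Unc13c had later changes from -0.35 to -0.07 and mean signals from 2.76 to 4.97.

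**Figure D4:**
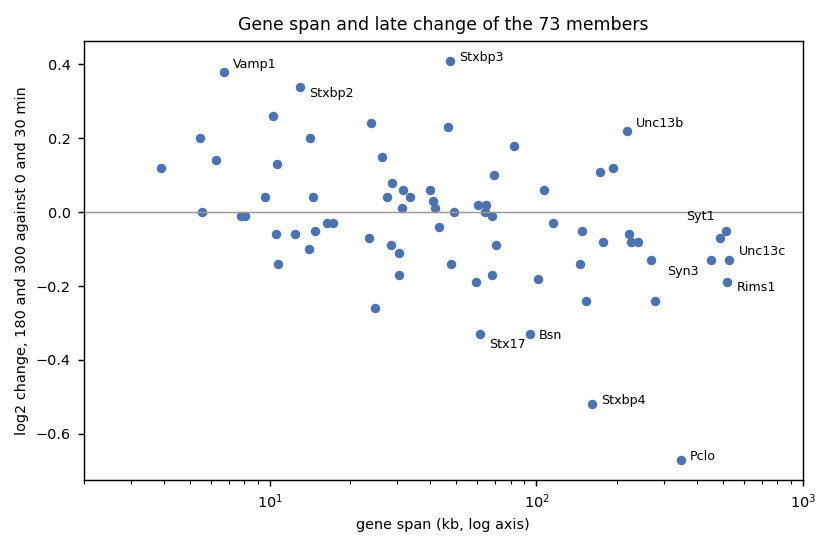
Change of each of the 73 genes between the arrays of 180 and 300 min and those of 0 and 30 min (log2, vertical axis) against gene span in kb (log axis), 1 point per gene. Pclo and Stxbp4 lie lowest, Stxbp3 and Vamp1 highest, and the 5 longest genes lie between -0.19 and -0.05.

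Other genes of the vesicle cycle were read from lists of SNARE recycling factors, further active zone and priming proteins, further vesicle proteins and endocytic proteins, of which 48 of 51 were measured. Against 0 min 0 of the 48 were called at any time, and their medians were -0.03, -0.07 and -0.04 at 30, 180 and 300 min. In the later arrays Slc17a6, the vesicular glutamate transporter VGLUT2, rose by 0.38 (SE 0.09, adjusted p = 0.0406 in limma), and Dnm3, a dynamin that cuts vesicles from the membrane, fell by 0.38 (SE 0.09, adjusted p = 0.0428). Both calls were lost when single arrays were left out: Slc17a6 kept an adjusted p under 0.05 only without the second 300 min array (0.0296, change 0.45), and Dnm3 only without the second 0 min array (0.0357, change -0.45). Over all 16 alternatives their adjusted p-values in limma ran from 0.0124 to 0.193 and from 0.0202 to 0.201, both highest when all rows were tested. Slc17a6 also lost its call with arrays centred on their medians (adjusted p = 0.0509 in limma). Dnm3 also lost its call with quantile scaling (adjusted p = 0.0646) and with the replicate number as a block (0.0522). With the span trend removed its change was -0.30 with an adjusted p of 0.121. The related transporters Slc17a7 and Slc32a1 had later changes of 0.06 and -0.02, and Dnm1 had 0.00. Among 16 further active zone and priming genes 15 lay below 0 at 180 min, with a median of -0.12, beside a median of -0.04 over all genes above the background mark. Erc2, a partner of RIM, was the lowest of the 16 at -0.30, with an adjusted p of 0.368 in limma. The 4 factors that take spent SNARE complexes apart had changes between -0.21 (Nsf) and 0.01 (Napa) at 180 min and between -0.02 and 0.05 at 300 min.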

How the data were processed

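The authors deposited log2 signals, 1 for each array and transcript cluster. The base of the log was read from their range of 1.22 to 14.96. How background was corrected, probes summarised and arrays normalized, with which software and build, is not given in the sources used here, and it sets the size of every change. No further scaling was applied. Of 35399 rows, 21789 had 1 gene symbol, 1621 several and 11989 none, and 21698 of the first matched RefSeq's GRCm38.p6 gene table, with 0 symbols changed. The cluster with the highest mean stood for each of 999 genes with several. All 8 arrays entered 1 linear model of 4 time means, fitted with limma 3.58.1 in R 4.3.3 (lmFit, eBayes), with 4 residual and 10.1 prior degrees of freedom and a prior SD of 0.133. Tests were two-sided and adjusted over 19938 genes within each comparison, with a threshold of 0.05. The fit was tested on simulated data.

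Statistics go to genes called in any comparison and to the 10 smallest p-values of the F test. They also go to the 5 smallest of each comparison with 0 min and of the later against the earlier times. The main terminal isoforms and Syt4 complete these 27 genes, and not every statistic is printed for each of them. Others are named by role or as an end of a range. The limits of the span classes and the promoters shown were chosen after seeing values. The members and lists were chosen with earlier results of these data known. Spans, names and promoters are those of GRCm38.p6. Alternatives were quantile or median scaling, a replicate block, a background filter, all rows, the mean of clusters, another prior, a span correction and leaving out each array.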

Additional observations from a re-analysis of the deposited data

How the results depend on the processing

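Against 0 min, the count of 0 called genes among the 73 held under the scaling, filter, row, cluster, prior, span and block alternatives. With 1 array left out it ranged from 0 to 0 at 30 min, from 0 to 1 at 180 min (Pclo, without the second 0 min array), and from 0 to 1 at 300 min (Pclo without the second 0 min array, Stxbp4 without the second 300 min array). At 180 against 30 min and in the F test it ranged from 0 to 1, with Pclo called without either 0 min array. For the later against the earlier times, the count of 1 became 2 with arrays centred on their medians (Stx17 and Pclo), 2 with another prior (Stx17 and Pclo), 4 when only genes above the background mark were tested (Stxbp4, Stx17, Pclo and Vamp1) and 0 when all rows were tested. It ranged from 0 to 3 with 1 array left out, reaching 3 (Stxbp3, Pclo and Bsn) without the second 0 min array and 0 without any one array of 30 or 180 min. Without the first or the second 300 min array the count was still 1, but the gene was Vamp1 or Stxbp4, not Pclo. Where leaving out an array left 1 at a time, that array was assumed to vary like the others. With the replicate number as a block (replicate block), the later comparison called 2 genes (Stxbp4, adjusted p = 0.0400 in limma, and Pclo, 0.0133), and no other count over the 73 genes moved. Deviations of same-numbered arrays correlated between times at -0.09 to 0.09, so no effect shared by arrays of the same number was seen. This cannot show whether same-numbered arrays came from the same preparation, which the labels do not say. No result among those recomputed turned its direction while called. With 2 arrays a time, the number of arrays and the signal over background limit what can be called.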
